A study of Homo sapiens with 8 samples.

Results

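Interferon and innate sensing genes were followed as a set of 33 genes in human HEK293 cells that expressed GFP or a GFP-tagged RNA-binding protein. The set was a list of gene symbols, and 47 probes on the array carried one of them, out of 50599 probes and 36337 gene names in all. It held 15 antiviral effectors, 5 interferon-induced genes of less defined role, 6 sensors and adaptors, 5 transcription factors and 2 genes of antigen presentation. HEK293 is a line of human embryonic kidney cells, and the FT293 lines used here carried one transgene each at the same Flp recombination site, switched on by tetracycline. The 4 lines expressed GFP alone, GFP-HuR, GFP-TIA1 or GFP-TIAR. They are called the GFP, HuR, TIA1 and TIAR lines below, and all of them received tetracycline for 3 days, the GFP controls included. HuR, TIA1 and TIAR bind U-rich and AU-rich stretches of RNA and act on splicing, mRNA decay and translation. Each line is a single isogenic line, so differences between lines include any that arose while each was made. The labels count 2 independent biological replicates per line, each on its own one-colour Agilent array, so that every comparison rested on 4 arrays. The second TIA1 sample is GFP-TIA1 by its title, but its source name reads GFP-TIA2, and it was taken as TIA1 from the title.

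Type I interferons are secreted when a cell detects foreign or misplaced nucleic acid. RIG-I (the product of DDX58) and MDA5 (IFIH1) detect RNA in the cytoplasm and signal through MAVS, TLR3 detects double-stranded RNA in endosomes, and most other Toll-like receptors and the interleukin-1 receptors signal through the adaptor MYD88. The routes through MAVS and TLR3 activate IRF3 and IRF7, and interferon is released. Its receptor sets off a complex with STAT2 and IRF9 that binds the interferon-stimulated response element (ISRE) of many genes. The products of those genes block entry, translation or replication of viruses.

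The promoters of these genes carried interferon response motifs more often than promoters at large, and short stretches of them are printed here because they belong to the genes that differed between lines. The set was chosen for its tie to interferon, so this excess describes the list and is no result of these arrays. Windows of 300 bases (250 before the start of transcription and 50 after it, RefSeq, GRCh38.p14) were found for 27 of the 33 genes. IFIT2, IFITM2, OAS2, OASL, IRF3 and IRF7 had none in the table used. The ISRE core was searched on both strands as GAAA, any 2 bases and GAAA again, and 19 of the 27 genes had at least 1 match. Some genes have several starts, and counted by window 23 of 33 (69.7%) held a match, against 1255 of all 35116 windows (3.57%). The GAS element, a site known from genes that respond to interferon gamma, was searched as TTCNNNGAA, which reads the same on either strand, and 11 of the 27 genes had it, in 12 of 33 windows (36.4%) against 2689 of all windows (7.66%). The 2 motifs overlapped in BST2, IFI27, IFITM1, MX1 and MYD88. Of the 8 genes with a window that were called different from the HuR line below, 7 had an ISRE core match, as did 12 of the 19 others with a window. The stretches below are written in the gene's own direction, 5′ to 3′, with the match in capitals, and all of them lie before the start of transcription.
MYD88, ISRE core, chr3:38138590-38138619, plus strand: gcgcttctcgGAAAGCGAAAgccggcgggg
IFITM1, ISRE core, chr11:313990-314019, plus strand: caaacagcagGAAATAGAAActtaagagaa
IFITM3, ISRE core, chr11:320876-320905, minus strand: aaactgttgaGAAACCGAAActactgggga
IFI44, ISRE core on the opposite strand, chr1:78649761-78649788, plus strand: gcacactgagTTTCAGTTTCctttctct
IFI44L, ISRE core, chr1:78620274-78620303, plus strand: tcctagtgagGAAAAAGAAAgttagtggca
IFI44L, ISRE core, chr1:78620365-78620394, plus strand: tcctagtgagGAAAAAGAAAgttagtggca
BST2, ISRE core, overlapping pair, chr19:17405741-17405770, minus strand: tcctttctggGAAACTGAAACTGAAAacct
OAS3, ISRE core, chr12:112938321-112938350, plus strand: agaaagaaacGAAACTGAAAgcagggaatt
IFI35, GAS, chr17:43006752-43006780, plus strand: aggcagggatTTCACGGAAatgaaagtgg

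The BST2 stretch held 2 matches that overlap each other. The IFI44L promoter held the same letters, core and flanks, at both positions printed. A match describes letters only and says nothing of binding in these cells.

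The arrays were alike with 1 exception. On 7 arrays the scanner software marked 53.2% to 58.5% of probes as well above background, and on GFP replicate 1 (GFP 1) it marked 86%, whose mean local background was 90.0 against 37.4 to 43.5 elsewhere. The replicates of a line differed by more than 2-fold at 15.8% of probes in GFP, counted where both arrays had signal well above background, and at 0.455% (HuR), 1.13% (TIA1) and 1.45% (TIAR) in the other lines. Of the 47 member probes, 36 were well above background on all 8 arrays, and at 35 of these the GFP arrays were within 1 log2 unit of each other, with a median gap of -0.36 between GFP 1 and GFP 2. Among the 11 dimmer member probes, GFP 1 was over 1 log2 unit above GFP 2 at 8, by up to 4.02. Of 9 HEK293 markers, 7 were well above background on both GFP arrays and 8 on both arrays of each other line, among them VIM, KRT8, KRT18 and PAX2. PAX8 did not reach this in any line, and NEFM did not in GFP.

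**Figure D1:**
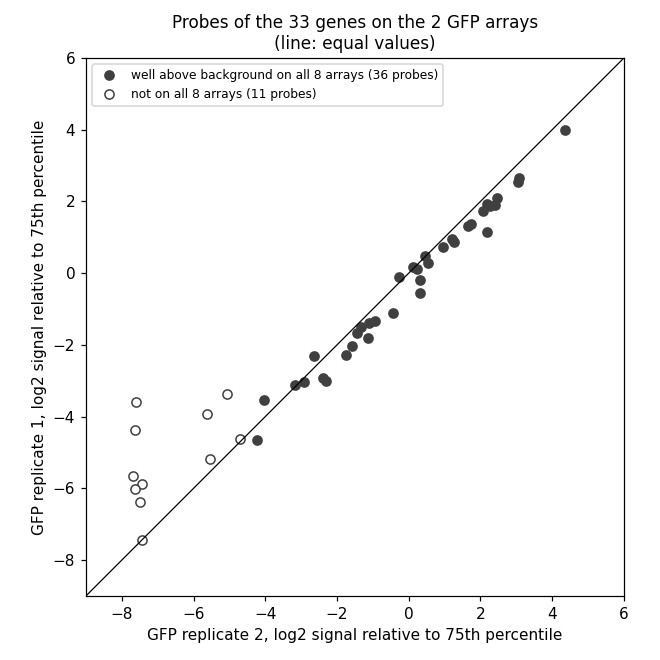
Each point is 1 of the 47 member probes, placed by its log2 signal relative to the array's 75th percentile on GFP 2 (x axis) and GFP 1 (y axis), with filled points well above background on all 8 arrays and the line marking equal values. The 36 filled points lie close to the line and mostly just under it, while 8 of the 11 open points lie over 1 log2 unit above it.

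A probe well above background on all 8 arrays was present for 26 of the 33 genes and absent for 7, and OAS1 was above background on none. Levels below are log2 signals relative to the 75th percentile of the array, so that 0 is the level of that percentile and each unit is 2-fold. Levels of different probes are not compared with each other. A gene is represented by its brightest tested probe and was called when it differed at least 2-fold with a Benjamini-Hochberg adjusted p under 0.05 in limma, taken over all probes tested. The TIA1 and TIAR comparisons with HuR used the same HuR arrays, so they are not independent of each other.

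MYD88 had the largest difference from HuR in the set, in TIA1 and in TIAR alike. It was low in the HuR line alone. The probe, at chr3:38183932-38183991 (hg19), read 0.47 and 0.46 on the GFP arrays, -2.92 and -3.02 on the HuR arrays, 0.28 and 0.09 on the TIA1 arrays and 0.46 and 0.24 on the TIAR arrays. Both HuR arrays lay at least 3.01 log2 units below all 6 others. The GFP arrays read just above the TIA1 and TIAR arrays, and those of TIA1 and TIAR overlapped. MYD88 was 8.91-fold higher in TIA1 than in HuR (log2 difference 3.16 ± 0.11 SE, limma adjusted p = 0.00177) and 9.97-fold higher in TIAR (3.32 ± 0.12, adjusted p = 0.00359). TIA1 and TIAR differed from each other by 0.16 ± 0.14 (adjusted p = 0.541). Against GFP 1 alone the HuR line was lower by 3.44 (log2 difference -3.44, adjusted p = 0.00127) and against GFP 2 alone by 3.43 (-3.43, adjusted p = 0.00978). As whole cultures were measured, fewer cells expressing a gene and less RNA per cell cannot be told apart here.

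The antiviral effectors fall into families, and the IFITM family, membrane proteins that hinder fusion of viruses with the cell, was high in the TIA1 line. IFITM1 (chr11:315209-315268, hg19) read 0.28 and 0.53 in GFP, -0.29 and -0.26 in HuR, 2.10 and 1.92 in TIA1 and -0.11 and 0.47 in TIAR. Both TIA1 arrays lay above all others. It was 4.86-fold higher in TIA1 than in HuR (2.28 ± 0.11, limma adjusted p = 0.00194), and its other probe gave 2.02 ± 0.09. IFITM1 was also the one gene of the set called lower in TIAR than in TIA1, being 3.54-fold lower (-1.83 ± 0.23, adjusted p = 0.0377), with -0.86 ± 0.11 at the other probe. The probes disagreed on TIAR against HuR, with 0.46 ± 0.22 (adjusted p = 0.184) at the brighter and 1.16 ± 0.10 (adjusted p = 0.00593) at the dimmer.

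IFITM3 read 1.37 and 1.73 in GFP, 1.41 and 1.31 in HuR, 2.46 and 2.48 in TIA1 and 1.73 and 1.76 in TIAR. It was 2.15-fold higher in TIA1 than in HuR (1.11 ± 0.10, limma adjusted p = 0.00388). In TIAR the difference from HuR was 0.39 ± 0.10 (adjusted p = 0.049), under 2-fold. IFITM2 had the same order, from 2.17 and 2.01 in HuR to 2.88 on both TIA1 arrays, with a difference of 0.79 ± 0.10 (adjusted p = 0.00858), also under 2-fold. The TIA1 arrays thus lay above the arrays of all other lines for each of the 3 IFITM genes. IFITM genes are close copies, and probes of one may take up RNA of another, which was not tested.

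The oligoadenylate synthetases make a second messenger of the antiviral response, and OAS3 was called higher in TIAR than in HuR. OAS2 and OASL were called too. Both entered that test only through the TIAR arrays, so their direction was set by the filter. OAS3 (chr12:113410131-113410190, hg19) read -2.03 and -1.58 in GFP, -2.90 and -3.14 in HuR, -2.66 and -2.93 in TIA1 and -1.86 and -2.01 in TIAR. The TIAR arrays overlapped the GFP arrays and lay above those of HuR and TIA1. OAS3 was 2.12-fold higher in TIAR than in HuR (1.09 ± 0.13, limma adjusted p = 0.0111), and 1.78-fold with normexp and 1.42-fold on the authors' values, neither of them called. Its other probe was well above background only on GFP 1 and was not tested.

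OASL, a relative of these enzymes that aids RIG-I signalling, read -4.71 and -4.86 in TIAR and -5.65 on GFP 1. It was not well above background on GFP 2 or on either HuR or TIA1 array. OASL was at least 2.35-fold higher in TIAR than in HuR (limma adjusted p = 0.00375) and at least 1.63-fold higher than in TIA1 (adjusted p = 0.0334). These bounds hold for the scaling used here: the difference from HuR was 0.74 (1.67-fold) with normexp background correction and 0.31 (1.24-fold, adjusted p = 0.133) on the authors' values, and that from TIA1 was 0.27 and 0.20, none of them called. The same kind of bound applied to OAS2, with -4.75 and -4.85 in TIAR and both HuR arrays below background, which was at least 2.05-fold higher in TIAR than in HuR (adjusted p = 0.00751). OAS2 lost its call with normexp (0.56, 1.48-fold) and on the authors' values (0.16, 1.12-fold, adjusted p = 0.321). Of its other probes, 1 was above background on GFP 1 and TIA1 replicate 1 and the other on no array. OAS1 had no usable signal.

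**Figure D2:**
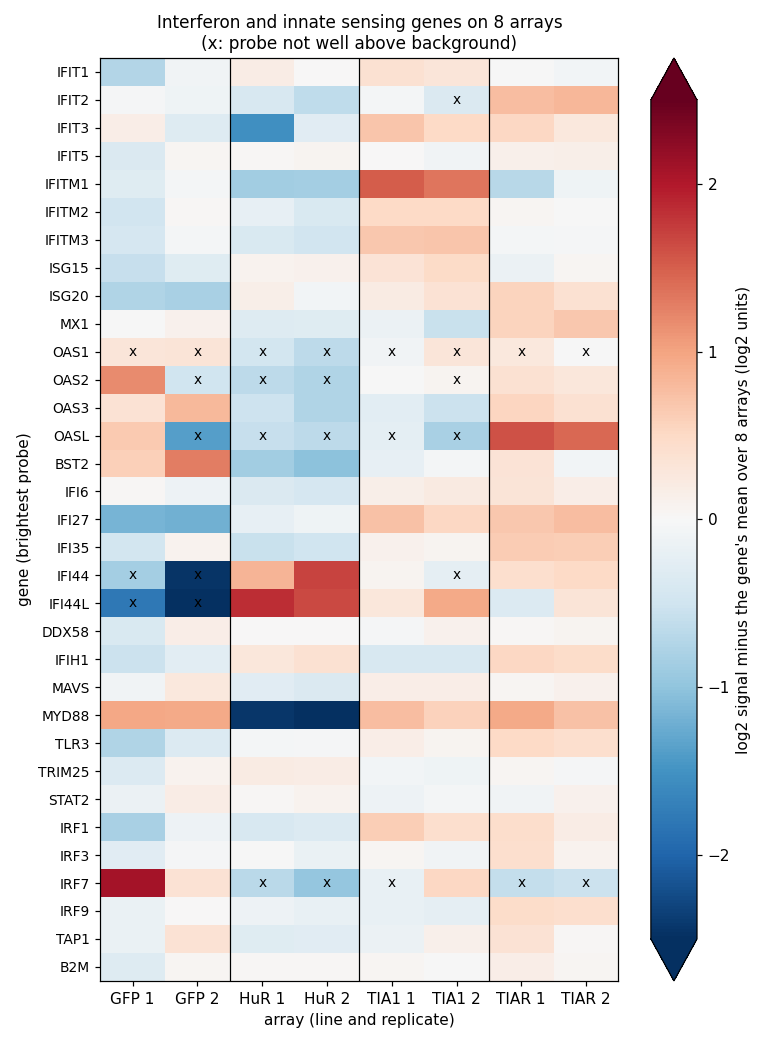
Rows are the 33 genes by their brightest probe and columns the 8 arrays. Colour gives the log2 signal minus the gene's mean over the 8 arrays (red higher, blue lower, in log2 units), and x marks a probe not well above background on that array. MYD88 is blue on the HuR arrays only, IFITM1 is red on the TIA1 arrays only, OASL is reddest on the TIAR arrays, and IFI44 and IFI44L are bluest on the GFP arrays, where both are below background.

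The IFIT proteins bind viral RNA. IFIT2 (chr10:91068397-91068456, hg19) read -4.62 and -4.70 in GFP, -5.00 and -5.22 in HuR, -4.65 and -4.96 in TIA1 and -3.83 and -3.77 in TIAR. Both TIAR arrays lay above all others, by 2.48-fold against HuR (1.31 ± 0.12, limma adjusted p = 0.00705) and by 2.01-fold against TIA1 (1.01 ± 0.15, adjusted p = 0.0482). With normexp the differences were 0.79 and 0.30, and on the authors' values 0.27 (1.20-fold) and 0.20 (1.14-fold), none of them called. The probe was dim and below background on TIA1 replicate 2, and the other IFIT2 probe was above background on GFP 1 only.

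IFIT3 differed by 1.50 ± 0.44 in TIA1 and 1.30 ± 0.45 in TIAR from HuR, and neither passed (limma adjusted p = 0.0555 and 0.096). Its HuR arrays read -5.24 and -4.00, the widest gap between HuR replicates in the set. The abundant IFIT1 lay between -0.45 and 0.01 on all arrays but GFP 1 (-1.11), and IFIT5 between 0.86 and 1.35 on all 8. ISG15, the ubiquitin-like modifier, was between 1.92 and 2.97, highest on the TIA1 arrays, with 0.32 ± 0.10 for TIA1 against HuR (adjusted p = 0.0646).

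BST2 (tetherin), which holds budding virus at the cell surface, was lowest in HuR. Its brighter probe (chr19:17513748-17513807, hg19) read -1.82 and -1.13 in GFP, -3.28 and -3.45 in HuR, -2.62 and -2.46 in TIA1 and -2.08 and -2.48 in TIAR. HuR lay below every other line and GFP above. BST2 was 2.12-fold higher in TIAR than in HuR (1.08 ± 0.17, limma adjusted p = 0.0185), while TIA1 was 0.83 ± 0.12 higher (adjusted p = 0.0105), under 2-fold, and the other probe gave 0.79 ± 0.14 for TIAR. The TIAR call was lost with normexp (1.74-fold) and on the authors' values (1.35-fold, adjusted p = 0.147). MX1, a GTPase against influenza virus, differed by 0.93 ± 0.10 between TIAR and HuR (adjusted p = 0.00832), just under 2-fold, and by -0.04 ± 0.17 between TIA1 and HuR. The nuclease ISG20 was 0.18 and 0.12 in GFP and between 0.87 and 1.49 on the other 6 arrays.

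IFI44 and IFI44L, neighbours on chromosome 1, were the only members called lower in a TIA line than in HuR. IFI44L (chr1:79107590-79107649, hg19) read -2.73 and -2.92 in HuR, -4.29 and -3.63 in TIA1 and -4.92 and -4.26 in TIAR, and was not well above background on either GFP array. It was 2.20-fold lower in TIA1 than in HuR (-1.14 ± 0.25, limma adjusted p = 0.0284) and 3.41-fold lower in TIAR (-1.77 ± 0.26, adjusted p = 0.0148). IFI44 (chr1:79128479-79128538, hg19) read -4.34 and -3.49 in HuR, -5.12 and -5.40 in TIA1, the latter below background, and -4.76 and -4.69 in TIAR. It was 2.55-fold lower in TIA1 than in HuR (-1.35 ± 0.32, adjusted p = 0.0334) and differed by -0.81 ± 0.31 in TIAR (adjusted p = 0.119). Both TIA1 calls were lost with normexp, at -0.30 for IFI44 (1.23-fold, adjusted p = 0.216) and -0.62 for IFI44L, and on the authors' values, at -0.48 (1.39-fold) and -0.80, while the TIAR call of IFI44L was kept in both.

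Of the other genes of less defined role, IFI35 was called in TIAR. IFI35, a leucine zipper protein, read -2.28 and -1.74 in GFP, -2.37 and -2.33 in HuR, -1.72 and -1.75 in TIA1 and -1.19 and -1.20 in TIAR. It was 2.23-fold higher in TIAR than in HuR (1.15 ± 0.09, limma adjusted p = 0.0058) and 1.95-fold, just short of a call, on the authors' values. In TIA1 it was 0.61 ± 0.09 higher (adjusted p = 0.0109), under 2-fold. IFI27 was -3.13 and -3.17 in GFP, -2.16 and -2.08 in HuR and between -1.44 and -1.20 in the TIA lines, with differences from HuR of 0.78 ± 0.12 (TIA1, adjusted p = 0.011) and 0.87 ± 0.10 (TIAR, adjusted p = 0.00985). IFI6 differed by 0.57 ± 0.10 and 0.64 ± 0.11. For both genes the differences were under 2-fold.

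**Figure D3:**
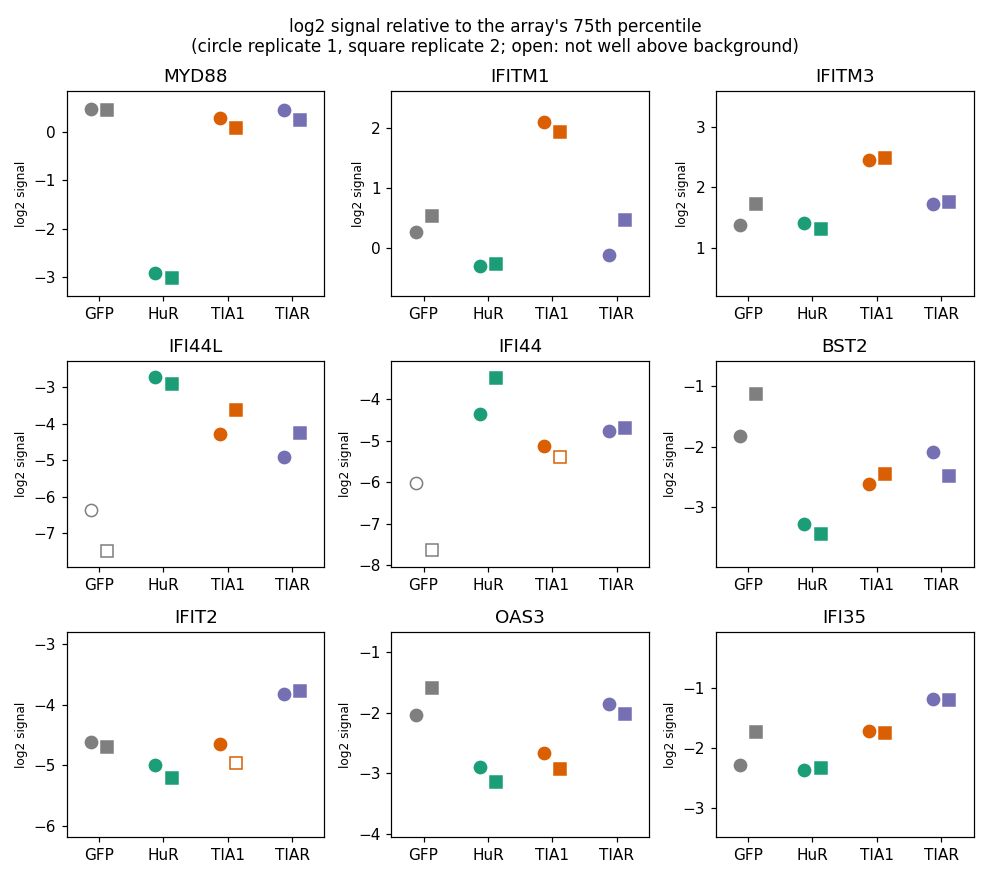
Each panel shows 1 gene, with the line on the x axis and log2 signal relative to the array's 75th percentile on the y axis. Circles are replicate 1, squares replicate 2, and open symbols mark a probe not well above background. MYD88 is lowest on the HuR arrays (-2.92 and -3.02), IFITM1 and IFITM3 are highest on the TIA1 arrays, IFIT2 and IFI35 on the TIAR arrays, and IFI44 and IFI44L on the HuR arrays.

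Sensors and adaptors other than MYD88 differed less and were not called. IFIH1 (MDA5) read -0.57 and -0.48 in HuR, -1.26 on both TIA1 arrays and -0.34 and -0.40 in TIAR. It was 0.73 lower in TIA1 than in HuR (-0.73 ± 0.09, limma adjusted p = 0.00793) and 0.89 ± 0.11 higher in TIAR than in TIA1 (adjusted p = 0.0372), both under 2-fold. DDX58 (RIG-I) depended on the probe, with 0.05 ± 0.09 for TIAR against HuR at the first and -0.96 ± 0.09 (adjusted p = 0.00756) at the second. MAVS had 7 probes, and all of them read higher in TIA1 and TIAR than in HuR, by 0.12 to 0.64. TLR3 was 0.50 ± 0.09 higher in TIAR than in HuR (adjusted p = 0.0247). TRIM25, the ligase that activates RIG-I, was highest in HuR (3.19 and 3.18) with a difference of -0.29 ± 0.09 in TIA1 (adjusted p = 0.0611).

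Of the transcription factors, none was called, and IRF1 and IRF9 differed by less than 2-fold. IRF1 was 0.90 ± 0.12 higher in TIA1 (limma adjusted p = 0.00814) and 0.69 ± 0.13 higher in TIAR (adjusted p = 0.0244) than in HuR. IRF9 was 0.60 ± 0.09 higher in TIAR (adjusted p = 0.0176), its TIAR arrays (-0.88 and -0.92) lying above all others. STAT2 stayed between 1.32 and 1.65 and IRF3 between 0.96 and 1.67 on the 8 arrays. IRF7, which amplifies the response, was above background on both GFP arrays and TIA1 replicate 2 and on no other array. In antigen presentation, B2M was between 4.00 and 4.50 on all arrays, and TAP1 was 0.49 ± 0.15 higher in TIAR than in HuR (adjusted p = 0.0704).

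The calls were set against the rest of the array. In TIAR against HuR, 7 of 31 tested genes (22.6%) were called higher, namely BST2, IFIT2, OAS2, OAS3, OASL, IFI35 and MYD88, where 7.4% of all genes were, and 1 (IFI44L, 3.23%) was called lower, where 2.83% were. OAS1 and IRF7 had no tested probe in either comparison with HuR, and OAS2 and OASL had none in TIA1 against HuR. In TIAR against HuR, OAS2 and OASL entered only through the TIAR arrays, so their direction was set by the filter. With probes well above background on all 4 arrays, 20.7% of members and 8.39% of all genes were called there in either direction. The median difference was 0.46 for the set and 0.06 for all genes. In TIA1 against HuR, 3 of 29 (10.3%) were called higher, namely IFITM1, IFITM3 and MYD88, against 8.46% of all genes, and 2 (IFI44 and IFI44L, 6.9%) lower, against 4.74%. These shares were close to those of all genes. IFI44 entered only through the HuR arrays. The median difference was 0.24 for the set and 0.08 for all genes. In TIAR against TIA1, 2 of 31 were called higher (IFIT2 and OASL, 6.45%, against 1.34%) and 1 lower (IFITM1, 3.23%, against 1.03%). IFIT2 and OASL entered that test only through the TIAR arrays. With probes well above background on all 4 arrays, only IFITM1 was called (3.7% of members, against 1.97% of all genes). Without HuR replicate 1, and likewise without HuR replicate 2, only MYD88 and OASL were called in TIAR against HuR (6.45%, with 2.77% and 2.41% of all genes called in either direction, against 25.8% and 10.2% with all arrays). The differences of the genes that lost their call stayed close, IFIT2 at 1.42 and 1.20 and IFI35 at 1.14 and 1.17. With quantile normalization 9.68% of members and 8.63% of all genes were called, and with the authors' values 6.45% and 4.51%. Without TIA1 replicate 1 the TIA1 comparison called 3 genes in place of 5, with IFI44 and IFI44L lost.

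**Figure D4:**
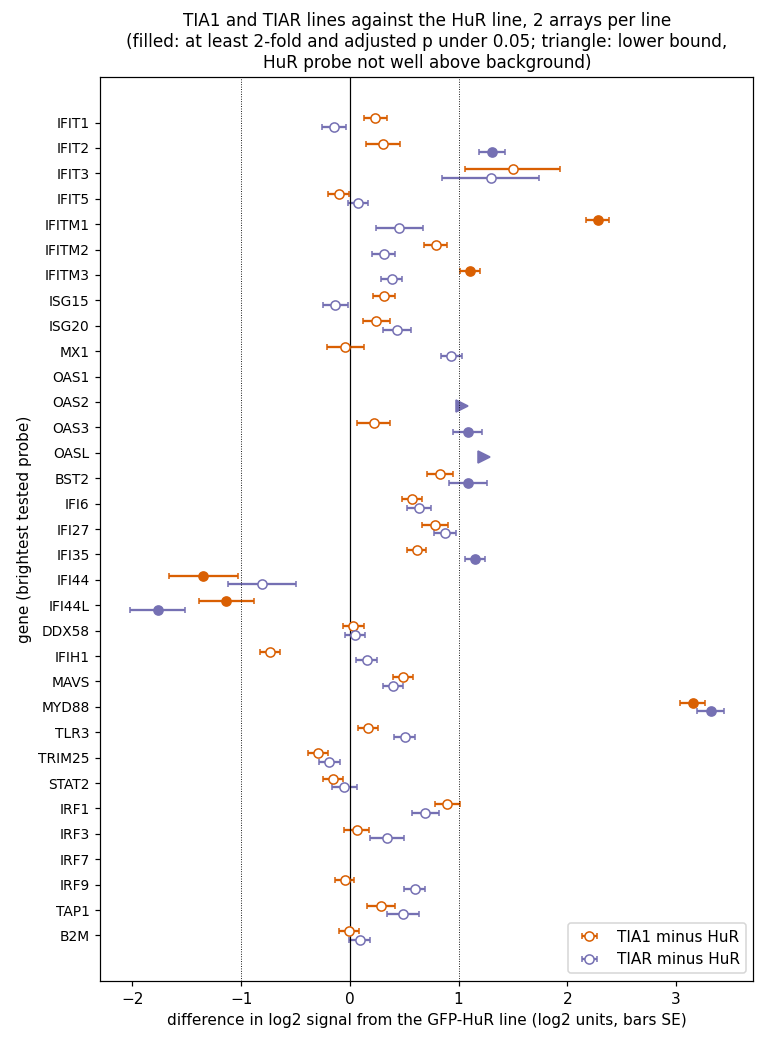
For each gene the log2 difference of the TIA1 line (orange) and of the TIAR line (purple) from the HuR line is plotted on the x axis, with bars of 1 SE. Filled circles are called, open circles are not, and triangles are lower bounds where the probe was not well above background in HuR. MYD88 lies beyond 3 in both, IFITM1 reaches 2.28 in TIA1, and IFI44 and IFI44L lie to the left of 0 in both.

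The order of the lines gave a second view, without a fold threshold. A gene was counted for a line when both of its arrays lay above, or both below, the 6 other arrays, over 32 measured members and 21883 genes. TIAR lay above for 11 of 32 members (34.4%, against 6.84% of all genes), which were B2M, IFI35, IFIH1, IFIT2, IFIT5, IRF3, IRF9, ISG20, MX1, OASL and TLR3, and below for 0 (against 5.41%). The gap to the nearest other array was largest for IFIT2 (0.790). It was small for B2M (0.009), ISG20 (0.032), IRF3 (0.042), IFIT5 (0.045) and IFIH1 (0.082). At the other IRF3 probe TIAR replicate 1 read 0.71, the lowest of the 8 arrays. OASL was measured here only through the TIAR arrays. HuR lay below for 10 (31.2%, against 15.6%), which were BST2, IFI35, IFI6, IFIT2, IFITM1, IRF7, MAVS, MYD88, OAS2 and TAP1, and above for IFI44, IFI44L and TRIM25 (9.38%, against 11.8%). TIA1 lay above for IFIT1, the 3 IFITM genes and ISG15 (15.6%, against 12.6%) and below for IRF9 (3.12%, against 9.47%). GFP lay above for BST2 and MYD88 (6.25%, against 9.45%) and below for IFI27, IFI44, IFI44L, IFIT1, ISG15, ISG20 and TLR3 (21.9%, against 11.1%). IRF7 and OAS2 in HuR and IFI44 and IFI44L in GFP were below background, so only the side is known. IRF7 was measured here only through the GFP arrays and OAS2 only through the TIAR arrays. IFI44 and IFI44L were measured only through lines other than GFP. The filter thus bore on their side, and the shares above include them. Small gaps occurred in the other lines too, such as 0.040 for IFIT2 in HuR, 0.001 for IRF9 in TIA1 and 0.008 for MYD88 in GFP.

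No gene of the set was called against the GFP line. Limma called 0 of 29 members in TIA1, 0 of 32 in TIAR and 0 of 30 in HuR, and 0% of all genes in either direction in each of the 3 comparisons, the lowest adjusted p over all probes being 0.0581, 0.116 and 0.0902. At an unadjusted p under 0.05 there were 11, 10 and 11 members, where 21.5%, 16.1% and 16.9% of all genes had one. The methods' t-test is paired, and it was run here on same-numbered replicates, though the labels do not tie equal numbers. Unadjusted, it called 1, 2 and 2 members, and 2.64%, 1.82% and 1.57% of all genes. As the GFP arrays differed from each other, each was also used alone, with its spread assumed to be that of the other line, and genes called the same way against both were counted. This rule was chosen after the data were seen.

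Against each GFP array alone, IFI27, IFI44L, IFITM1 and ISG20 were called higher in TIA1 (4 of 29, against 3.42% of all genes) and 0 lower (against 2.84%). IFI27, IFI44, IFI44L and ISG20 were called higher in TIAR (4 of 32, against 2.09%) and 0 lower (against 1.18%). In HuR, IFI27, IFI44 and IFI44L were called higher (3 of 30, against 1.26%) and BST2, IRF7 and MYD88 lower (3, against 3.09%). IFI44 and IFI44L were below background on both GFP arrays and IRF7 on both HuR arrays. Each of them thus entered these tests only through the other line. IFI27 and IFI44L were on all 3 lists, which share the GFP arrays. IFI27 differed from GFP 1 and GFP 2 by 1.79 and 1.84 in TIA1, by 1.88 and 1.93 in TIAR and by 1.01 and 1.05 in HuR. IFI44L was below background in GFP, and HuR was at least 7.88-fold above it, TIA1 at least 3.58-fold and TIAR at least 2.31-fold, with limma adjusted p of 0.165, 0.109 and 0.209 on all 4 arrays. BST2 was lower in HuR than GFP 1 and GFP 2, with differences of -1.55 and -2.24.

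Other genes of the pathway were taken from lists of 119 entries, of which 118 genes were measured and 78 were well above background on all 8 arrays. Most of the interferon genes read here were not detected outside GFP 1. Of 8 interferon genes, 7 were well above background on GFP 1. IL28A was well above background on all of the other 7 arrays as well, and IFNE on 2 of them. The rest, IFNB1 and IFNG among them, were on none of those 7. IFNA2 was the only interferon alpha gene among the 8. IFNE was above background in HuR and not in TIA1 or TIAR, and no fold is given for it.

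Of 85 related genes tested in TIA1 against HuR, 8 were called higher (9.41%, near the 8.46% of all genes) and 3 lower (3.53%, against 4.74%). MB21D1 and EPSTI1 among the 8 entered only through the TIA1 arrays, and IFNE among the 3 only through the HuR arrays. Of 84 in TIAR, 9 were called higher (against 7.4% of all genes) and 1 lower (1.19%, against 2.83%). The median differences were 0.11 and 0.16. Genes of JAK-STAT signalling gave 3 of 14 higher in both, namely IRF8, SOCS1 and SOCS3. SOCS3, an inhibitor of cytokine receptors, read -4.28 and -4.25 in HuR, -2.29 and -2.46 in TIA1 and -2.61 and -2.79 in TIAR (1.89 ± 0.11, limma adjusted p = 0.00235, and 1.57 ± 0.11, adjusted p = 0.00507). The transcription factor IRF8 was -1.88 and -1.64 in GFP, -3.74 and -3.90 in HuR, -2.70 and -2.14 in TIA1 and -1.57 and -1.56 in TIAR (1.40 ± 0.22 and 2.25 ± 0.11 against HuR). SOCS1 differed by 1.17 ± 0.15 and 1.25 ± 0.11. HuR was thus lowest for all 3. USP18, which removes ISG15 from proteins, was lower in TIA1 than in HuR (-1.02 ± 0.10, adjusted p = 0.00456).

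Among sensors and adaptors, DHX58 (LGP2, the third RIG-I-like receptor) was higher by 1.50 ± 0.11 in TIA1 and 1.52 ± 0.12 in TIAR than in HuR. MB21D1 (cGAS, the DNA sensor) was at least 2.90-fold higher in TIA1. It entered that test only through the TIA1 arrays, so its direction was set by the filter. The list had 2 of 16 genes called higher in TIA1 and 1 of 16 in TIAR. Of all genes, 8.46% were called higher in TIA1 and 7.4% in TIAR, and the counts below are read against these shares too. Of further interferon-stimulated genes, 3 of 30 were called higher in TIA1 (EPSTI1, IFI30 and UBA7), and 5 of 29 were called higher in TIAR (CMPK2, IFI30, PARP14, UBA7 and UBE2L6). IFI30, a lysosomal thiol reductase, read 1.57 and 1.31 in HuR, 2.59 and 2.42 in TIA1 and 3.84 and 3.75 in TIAR, the largest TIAR difference from HuR among the related genes called (2.35 ± 0.13, limma adjusted p = 0.004). EPSTI1 was at least 2.11-fold higher in TIA1 than in HuR, and CMPK2 differed by 1.27 ± 0.25 in TIAR. The direction of EPSTI1 was likewise set by the filter, as it entered only through the TIA1 arrays. In antigen presentation 0 of 17 were called higher in both comparisons, and TAP2, the partner of TAP1, was lower in TIA1 (-1.02 ± 0.10) and in TIAR (-1.23 ± 0.09).

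Several of these genes are also expressed in leukocytes, and markers of leukocytes were read beside them. Of 4 tested markers, 3 were called higher in TIA1 than in HuR (CD14, CD68 and ITGAM), where 8.46% of all genes were. In TIAR 2 of 4 were called higher (CD68 and ITGAM), where 7.4% of all genes were. In each comparison 1 of the 4 markers read lower than in HuR, and 0 were called lower. The summed signal of the 7 markers, in multiples of the array's 75th percentile, was 0.877 to 3.23 in GFP, 0.861 to 0.992 in HuR, 2.08 to 2.35 in TIA1 and 2.15 on both TIAR arrays. The defining T-cell marker CD3E was well above background on 1 TIAR array and on GFP 1 only, while PTPRC (CD45) was between -4.66 and -3.94 on 7 arrays and 1.12 on GFP 1. The part of these markers in the results above was not tested. Of the HEK293 markers, LHX1 was called higher than in HuR in both TIA lines, NEFL lower in both and NEFM lower in TIAR. Of 5 fibroblast and endothelial markers, 2 were well above background in each line and 0 were called.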

How the data were processed

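RNA was labelled with Cy3 and hybridised to Agilent SurePrint G3 Human Gene Expression arrays, 2 per line. The deposited intensity values were made by the authors with Feature Extraction 10.7.3.1, which subtracts background and detrends within each array. The series table holds the authors' deposited log2 values. Sorted, they were equal within 0.03 among the 6 arrays of GFP, HuR and TIA1 and within 0.02 between the TIAR arrays, but not between these sets, as after quantile normalization in 2 sets. They served as an alternative.

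Here, control and outlier spots were left out, log2 processed signals were reduced by each array's 75th percentile and repeated spots were averaged per probe. A probe entered a test when the 2 arrays of any compared line marked it well above background, and tests were made with limma 3.58.1 (lmFit and eBayes, R 4.3.3) on the 4 arrays of each of 6 comparisons. Where neither array of a line had a probe well above background, the fold is a lower bound, set against the higher of the lowest detected signal and the probe's own.

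The members and lists were chosen with earlier results of these data known. Named are all members, up to 5 related genes called in each direction with the largest change, and markers. Other called genes were named after their values were seen. Some listed genes are not reported here. Fits with a single GFP array were combined after seeing the data. All arrays lay on 1 slide and 1 scan, so no slide block was possible. With 2 arrays per line, their number limits the precision. Probe positions are the files' hg19 positions, and probes were not assigned to exons or untranslated regions.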

Additional observations from a re-analysis of the deposited data

Results flagged for a closer look

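IFIT2, OASL and IFITM1 differed between the TIAR and TIA1 lines, that is, their differences from the shared HuR arrays were not equal in the direct test. IFIT2 was higher in TIAR by 1.005 and OASL by 2.031 on the fitted log2 scale, and IFITM1 was lower (-1.825). For OASL both TIA1 arrays were below background, so the fitted value is no measured fold and the bound is at least 1.63-fold. IFIT2 and OASL entered the direct test only through the TIAR arrays. The limma adjusted p-values were 0.0482, 0.0334 and 0.0377. No call among the 3 was kept when any 1 of the 4 arrays was left out, but calls over all genes fell from 493 to between 0 and 25 in the same fits. The differences stayed close to those above, from 0.85 to 1.16 for IFIT2, 1.75 to 2.32 for OASL and -2.11 to -1.54 for IFITM1.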

How the results depend on the processing

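The calls depended on the setting. In TIA1 against HuR, 5 members were called, and 3 with normexp, the authors' values, no filter on dim probes, all 8 arrays in one fit or the methods' t-test unadjusted (0 after Benjamini-Hochberg), and 3 to 4 with 1 array left out. MYD88, IFITM1 and IFITM3 were called in each of these except the adjusted t-test. In TIAR against HuR, 8 were called, 3 with normexp or quantile normalization, 2 with the authors' values, 5 without the filter, 4 with all 8 arrays, 5 with the methods' t-test unadjusted (0 after adjustment), and 2 to 8 with 1 array left out. MYD88 was called in each except the adjusted t-test. The adjusted t-test called 0 of all genes in every comparison, so its 0 says nothing particular to the members. Calls over all genes moved too, from 2204 to 1269 (normexp), 1857 (quantile), 971 (authors' values), 1807 (no filter), 1393 (all 8 arrays) and 1019 (t-test) for TIAR, and from 2804 to 1686 (normexp), 1294 (authors' values) and 1986 (all 8 arrays) for TIA1. In TIAR against TIA1, 3 were called, and 1 with normexp, quantile normalization, the authors' values or probes well above background on all 4 arrays. The count was 0 without the filter or with either form of the methods' t-test. Calls over all genes moved there from 493 to 219 (normexp), 458 (quantile), 239 (authors' values) and 383 (all 4 arrays). They moved to 0 without the filter and to 322 with the unadjusted t-test.

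Against GFP, where 0 were called, all 8 arrays in one fit gave 5 (TIA1), 4 (TIAR) and 6 (HuR), the methods' t-test unadjusted 1, 2 and 2, the single-GFP rule 4, 4 and 6, and leaving out 1 array 0 to 8, 0 to 9 and 0 to 7. In the fit of all 8 arrays these were 17.2%, 12.5% and 20% of tested members, where 9.04%, 5.99% and 4.05% of all genes were called. Without 1 GFP array, calls over all genes rose from 0 as well in each comparison, so a rise there is not particular to the members. Without 1 array of the other line, calls stayed at 0 for members and for all genes. The cause of these shifts was not tested.

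The replicate numbers do not pair the samples, since the labels do not tie equal numbers and correlations of same-numbered deviations were -0.09 to 0.18. The methods' paired t-test thus rested on pairs that the labels do not give, and its counts are shown only as an alternative. With the replicate number as a block, counts stayed 5, 8, 0, 0 and 0, and the count for TIAR against TIA1 fell from 3 to 0. Calls over all genes in TIAR against TIA1 fell from 493 to 0 as well, so this loss is not particular to the members. Over single genes, 95 alternative fits kept their side of the threshold, 76 lost it and 0 changed sign. Quantile normalization moved the median of all genes against GFP to 0.206 (TIA1), 0.181 (TIAR) and 0.173 (HuR).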
